A study of Mus musculus with 12 samples.

Results

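The response to lipopolysaccharide (LPS), a constituent of bacterial outer membranes, was compared between 2 kinds of mouse macrophage. The quantity described is the difference of responses, that is LPS minus mock in MPI-2 cells less LPS minus mock in bone marrow-derived macrophages (BMM). All 12 arrays of the series entered it, and it was tested for all 19937 genes of the array that could be named. BMM came from marrow of C57BL/6 mice and were differentiated in DMEM with fetal calf serum and M-CSF, the macrophage growth factor. MPI-2 is 1 line of macrophages from C57BL/6 fetal liver, kept in RPMI with fetal calf serum and GM-CSF, the granulocyte-macrophage growth factor. Neither kind of cell carried an engineered allele, per the labels. Each kind was mock-treated or given R-LPS, with 3 arrays in each of the 4 groups. All cultures received 4-thiouridine, a nucleoside that marks RNA while it is transcribed, for 60 min. In the LPS groups this began 30 min after LPS and ended at 90 min. Values are therefore those of newly made RNA. A positive difference means that the response of MPI-2 lay above that of BMM, and a log2 difference of 1 is a 2-fold difference of the LPS-to-mock ratios.

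Toll-like receptor 4, with its partners Cd14 and Ly96, signals along separate routes. The adaptor Myd88 leads to NF-kB and MAP kinases and so to genes such as Tnf and Il6, while the adaptor Ticam1 (TRIF) leads to Irf3 and the gene of interferon-beta, Ifnb1. Secreted interferon-beta then acts back on the cells through Jak kinases and their transcription factors, which turn on interferon-stimulated genes. The sensor and both routes are known in macrophages from marrow and from tissues.

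Within a group, the correlation of arrays over all genes was 0.975 to 0.989 in BMM and 0.994 to 0.996 in MPI-2. BMM mock replicate 1 and BMM LPS replicate 3 correlated least with the rest of their groups. Array spread differed, with interquartile ranges of 3.27 to 3.47 (log2) in MPI-2 mock, 3.10 to 3.22 in MPI-2 LPS, 2.80 to 2.93 in BMM mock and 2.34 to 2.74 in BMM LPS. The median SD of a gene was 0.109 in MPI-2 LPS, 0.120 in MPI-2 mock, 0.176 in BMM mock and 0.204 in BMM LPS, while the fit uses 1 shared spread per gene. All 10 macrophage markers examined, Csf1r, Cd68, Itgam and Cd14 among them, lay above background (3.36, the level that 95% of olfactory receptor genes do not exceed) in at least 1 group. Of 25 T, B, NK, mast, dendritic and erythroid cell markers 15 lay under background in every group, and none of the 25 was called for the difference, although 1 dendritic cell marker was when BMM mock 1, MPI-2 mock 1, BMM LPS 2 or MPI-2 LPS 1 was left out. Cell type, medium, growth factor and any array batch cannot be told apart, and in bulk RNA neither can fewer responding cells and less RNA per cell. Replicates are called biological in the labels, with no animal or culture named. P-values therefore measure the spread among these samples, which may be technical in part, and the number of arrays limits the precision.

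MPI-2 and BMM differed in their response at 2662 of 19937 genes (13.4%) at an adjusted p under 0.05. The response of MPI-2 lay above that of BMM at 1412 genes (7.08%) and below it at 1250 (6.27%). Of these, 116 and 203 differed by at least 4-fold. Most calls came from genes that moved in BMM with no call in MPI-2: 845 fell in BMM (median log2 change -1.01, against 0.03 in MPI-2) and 634 rose in BMM (median 1.19, against -0.04). The converse held for 261 genes that fell and 216 that rose in MPI-2 with no call in BMM. A further 134 rose in both and more in BMM, 52 rose in both and more in MPI-2, 177 fell in both and more in BMM, and 39 fell in both and more in MPI-2. A further 96 passed in neither cell type alone, and the rest moved in opposite directions. A missing call in 1 cell type does not show that its genes stood still, and the difference itself is the tested quantity. Of 10559 genes above background in all 4 groups 2238 were called (21.2%), 1228 above (11.6%) and 1010 below (9.57%). With each array brought to the same median and median absolute deviation, the share of calls above fell from 53.0% to 38.5%. After quantile normalization, which also equalizes the spread of arrays, it was 53.1%, and after cyclic loess, another array scaling, 46.7%. The balance between directions thus depends on which scaling is used.

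**Figure D1:**
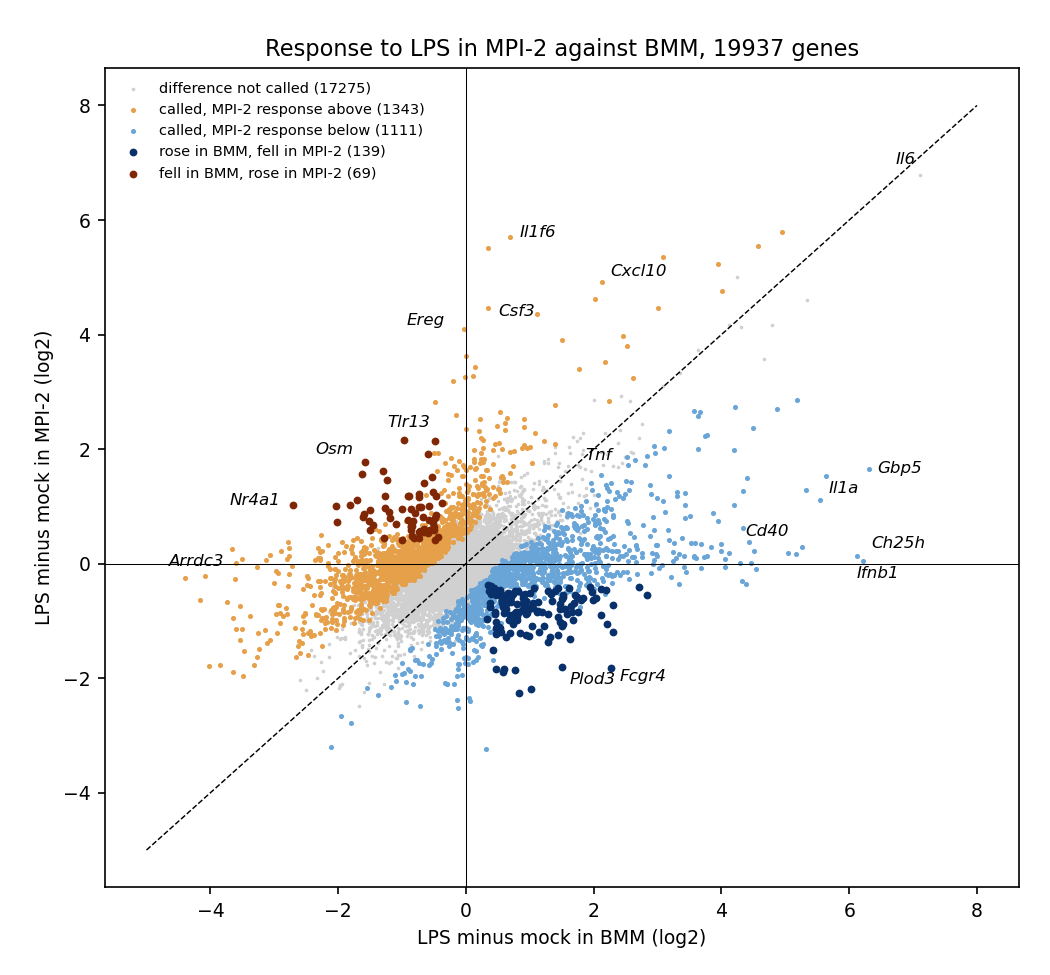
Each point is 1 of 19937 genes, with its LPS minus mock log2 change in BMM on the horizontal axis and in MPI-2 on the vertical axis. The dashed line marks equal responses, and coloured points passed the test of the difference. The 139 dark blue genes lie at the lower right (rose in BMM, fell in MPI-2), the 69 dark brown genes in the upper left, and Ifnb1 and Ch25h at the far right near 0 on the vertical axis.

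Genes that LPS moved in opposite directions were counted where the difference and both single responses passed. There were 139 that rose in BMM and fell in MPI-2 (0.697% of genes tested) and 69 that fell in BMM and rose in MPI-2 (0.346%). In 131 and 61 of them the LPS arrays did not overlap the mock arrays in either cell type. The calls in both cell types that chose these genes nearly fix this separation, which 16.9% of all genes show in whatever direction, so nothing is read from it. At least 2-fold changes both ways were seen in 15 and 9. Of the 139, 132 lay above background in all groups, as did 67 of the 69. These counts move with the arrays used: the first fell to 82, 91 and 92 without MPI-2 mock replicate 1, MPI-2 mock replicate 2 and MPI-2 LPS replicate 2, and with both outlying BMM arrays (mock 1 and LPS 3) left out the counts were 235 and 164.

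The 139 genes that rose in BMM and fell in MPI-2 had a median log2 level of 6.19 in BMM mock, 7.42 in BMM LPS, 6.69 in MPI-2 mock and 5.84 in MPI-2 LPS. MPI-2 had the higher mock level in 86 of them, and the higher LPS level in 34. Their leading members were an Fc receptor, a nuclear body protein, an interferon-induced GTPase and several enzymes and transporters. Promoters of 3 of them, the 250 bases before the start in RefSeq (GRCm38.p6), are shown because they hold the core of the interferon-stimulated response element (ISRE), GAAA and GAAA with any 2 bases between them, on either strand, in capitals. They were picked for this core and do not stand for the class. Of 114 promoters of the class 9 held it (7.89%), against 3.40% of all tested genes. The share was 8.63% in genes that rose in BMM with no call in MPI-2. Capitals in Fcgr4 also mark an NF-kB motif, the first of its 2 capital runs. Fcgr4 lies at chr1:171018676-171018925 (plus strand), Plod3 at chr5:136986769-136987018 (plus strand) and Irgm1 at chr11:48871421-48871670 (minus strand), where 2 matches overlap.
Fcgr4: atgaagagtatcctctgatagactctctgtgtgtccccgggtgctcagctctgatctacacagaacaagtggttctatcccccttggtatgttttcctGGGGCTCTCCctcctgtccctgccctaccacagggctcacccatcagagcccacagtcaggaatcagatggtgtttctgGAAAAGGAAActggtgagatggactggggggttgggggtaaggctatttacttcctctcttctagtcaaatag
Plod3: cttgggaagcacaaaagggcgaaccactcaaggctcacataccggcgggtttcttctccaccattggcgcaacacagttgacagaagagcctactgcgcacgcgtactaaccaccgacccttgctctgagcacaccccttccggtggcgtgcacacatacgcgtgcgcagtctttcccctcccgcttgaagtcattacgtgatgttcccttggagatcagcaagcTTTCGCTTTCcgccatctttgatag
Irgm1: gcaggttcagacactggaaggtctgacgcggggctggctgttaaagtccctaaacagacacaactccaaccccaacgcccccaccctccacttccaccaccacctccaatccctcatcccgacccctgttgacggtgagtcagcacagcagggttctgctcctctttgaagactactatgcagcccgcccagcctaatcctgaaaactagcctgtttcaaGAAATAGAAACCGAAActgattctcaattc

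Fcgr4, an activating receptor for immunoglobulin G, measured 6.62, 5.99 and 6.10 in the BMM mock arrays and 8.33, 8.45 and 8.75 in BMM LPS. In MPI-2 it measured 5.89, 5.89 and 5.85 in mock and 4.01, 4.03 and 4.11 in LPS. All BMM LPS arrays were thus above, and all MPI-2 LPS arrays below, every other array. The difference was -4.10 ± 0.22 (SE, adjusted p = 1.19e-08), the most negative after Il1a and Cd40 among nameable genes above background in all 4 groups. Plod3, a lysyl hydroxylase that modifies collagen, rose in BMM from 5.01, 4.80 and 4.85 to 6.48, 6.68 and 6.00, and fell in MPI-2 from 6.98, 6.84 and 6.74 to 5.23, 4.97 and 4.93. LPS turned its order, since MPI-2 mock was above all BMM arrays and MPI-2 LPS below all BMM LPS arrays. Its difference was -3.30 ± 0.23 (adjusted p = 1.22e-07).

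Irgm1, a GTPase of the defence against intracellular pathogens, went from 7.36, 7.17 and 7.16 to 9.24, 9.40 and 9.66 in BMM and from 6.13, 6.33 and 6.11 to 5.31, 4.95 and 5.14 in MPI-2. Pml, the scaffold of PML nuclear bodies, began at like levels, 6.38, 5.97 and 6.32 in BMM and 6.15, 6.27 and 5.93 in MPI-2. After LPS it stood at 7.92, 8.07 and 7.59 in BMM and at 4.73, 4.70 and 4.97 in MPI-2. No LPS array of either gene overlapped the mock arrays of its cell type. The differences were -3.26 ± 0.20 for Irgm1 (adjusted p = 3.33e-08) and -2.96 ± 0.22 for Pml (adjusted p = 2.82e-07). Naaa, a lysosomal amidase, rose by 2.31 in BMM and fell by 1.20 in MPI-2. The other members named by the rule were Tmem67 of the ciliary transition zone, the membrane protein Myadm, the deoxycytidine kinase Dck, the mitochondrial glutamate carrier Slc25a22, the amino acid transporter Slc7a7, the ubiquitin ligase Mid1 and the repressor Etv6. Their differences ran from -2.12 for Etv6 to -2.68 for Dck.

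Egr2, a zinc finger factor of the immediate early class, rose in BMM from 8.48, 8.62 and 8.45 to 10.51, 10.62 and 10.27. In MPI-2 it went from 9.44, 9.27 and 9.22 to 8.79, 8.95 and 8.98. The fall in MPI-2 was small (-0.41, adjusted p = 0.0404) and did not pass the stricter threshold of 0.01. The difference was -2.36 ± 0.18. Of the 139 genes, 27 belonged to a list described below. The share of all tested genes that belong to a list was not counted, so nothing is read from the 27. The interferon-stimulated genes held the most, 8 of 49 tested, against 0.697% of all genes. They were Daxx, Ifi27l2a, Oas2, Oasl2, Pml, Samhd1, Usp18 and Znfx1, named after their values were seen. No other list held more than 2, and the lists differ in size.

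The 69 genes that fell in BMM and rose in MPI-2 had median log2 levels of 6.81 in BMM mock, 5.87 in BMM LPS, 7.0 in MPI-2 mock and 8.07 in MPI-2 LPS. MPI-2 was the higher cell type in 30 of them in mock and in 64 after LPS. Osm, a cytokine of the Il6 family, fell in BMM from 7.46, 6.17 and 6.72 to 5.11, 5.48 and 5.03. In MPI-2 it rose from 5.78, 5.83 and 5.86 to 7.69, 7.45 and 7.63. MPI-2 was below BMM in all mock arrays and above it in all LPS arrays. The difference was 3.35 ± 0.33 (adjusted p = 4.53e-06). Btg2, an antiproliferative cofactor of mRNA deadenylation, turned its order too: BMM went from 9.61, 8.96 and 9.21 to 7.5, 7.90 and 7.51, and MPI-2 from 7.11, 7.09 and 7.11 to 8.67, 8.72 and 8.64 (difference 3.19 ± 0.22, adjusted p = 1.23e-07).

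Nr4a1, an orphan nuclear receptor and early response gene, had the largest difference of the 69, 3.73 ± 0.38 (adjusted p = 6.14e-06). It fell in BMM from 9.63, 9.03 and 9.28 to 6.72, 7.2 and 5.88 and rose in MPI-2 from 6.6, 7.19 and 7.35 to 7.99, 8.13 and 8.09. Il7r, the alpha chain of the interleukin-7 receptor, fell by 1.30 in BMM and rose by 1.62 in MPI-2. Tlr13, the receptor for bacterial ribosomal RNA, rose in MPI-2 from 6.28, 6.73 and 6.40 to 8.54, 8.72 and 8.65. In BMM its arrays overlapped, at 8.97, 9.59 and 9.73 in mock and 8.09, 8.29 and 8.99 in LPS, although the fall passed (-0.97, adjusted p = 0.00394). Slc20a1, a phosphate transporter, fell by 2.03 in BMM and rose by 1.01 in MPI-2. The kinase Stk38l, the lysosomal acetyltransferase Hgsnat, the phosphodiesterase Gde1, Herpud1 of endoplasmic reticulum-associated degradation, the gamma-secretase subunit Aph1b and the anion channel subunit Lrrc8d made up the rest named by the rule. Their differences ran from 1.94 for Lrrc8d to 2.84 for Gde1, and Aph1b can share probes with its near-identical copy.

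**Figure D2:**
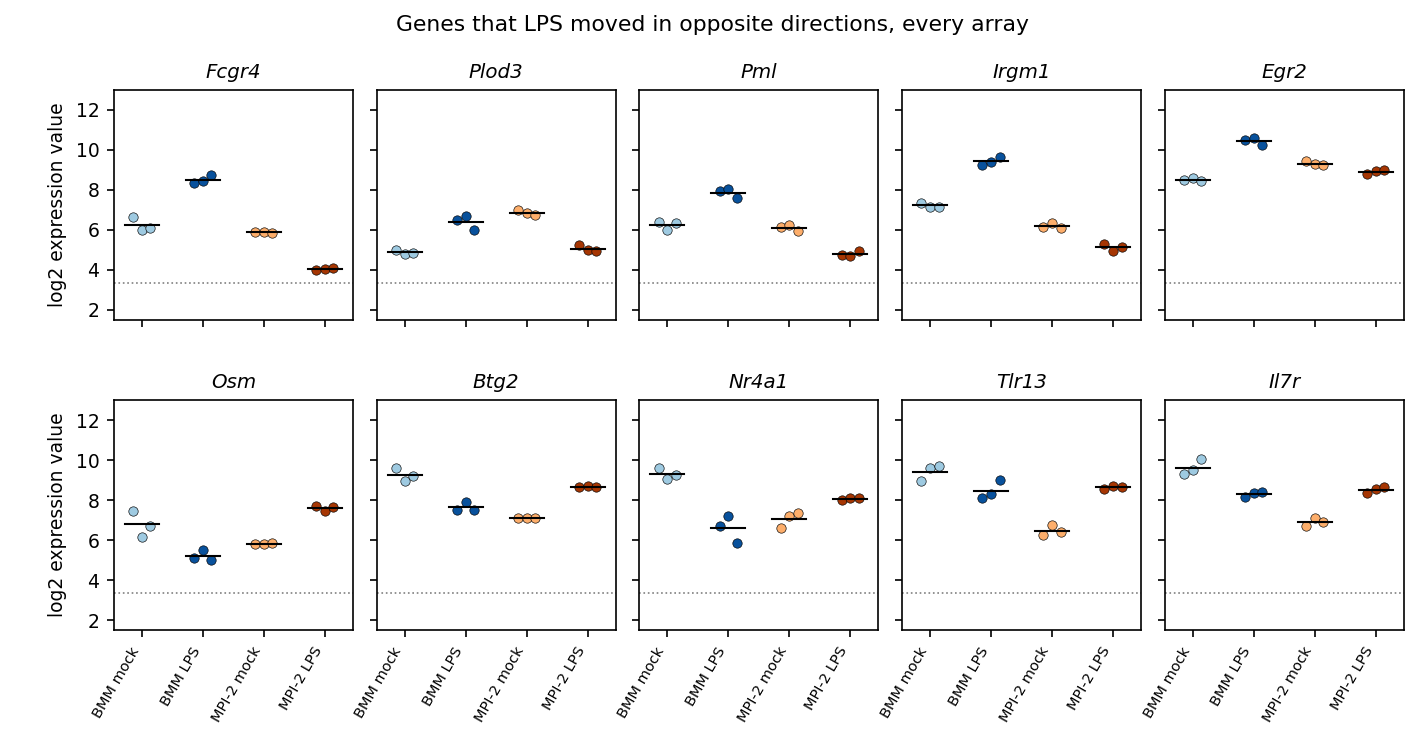
The log2 expression value of 10 genes in every array, by group, with bars at the group means and a dotted line at background (3.36). In the upper row, from Fcgr4 to Egr2, LPS arrays are higher than mock in BMM and lower in MPI-2, and in the lower row, from Osm to Il7r, the reverse holds, with overlap of the BMM arrays in Tlr13.

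The interferon arm held the lists with the largest median differences. Ifnb1 measured 3.07, 2.91 and 2.56 in BMM mock and 8.40, 8.80 and 9.69 in BMM LPS. In MPI-2 it measured 2.56, 2.36 and 2.78 in mock and 2.79, 2.74 and 2.58 in LPS. Every array but the BMM LPS arrays lay under background. The difference was -5.97 ± 0.35 (adjusted p = 2.19e-08), or -5.60 with every group mean under background set to background. Its promoter, at chr4:88522795-88523044 (minus strand), is shown with its NF-kB motif in capitals. The exact letters of the ISRE core were not found in this window.
Ifnb1: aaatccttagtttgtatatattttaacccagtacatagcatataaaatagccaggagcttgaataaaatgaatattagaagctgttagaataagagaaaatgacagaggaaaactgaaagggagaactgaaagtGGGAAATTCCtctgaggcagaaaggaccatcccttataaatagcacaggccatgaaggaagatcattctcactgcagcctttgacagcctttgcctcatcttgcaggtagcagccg

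Of 49 interferon-stimulated genes tested, 43 were called with MPI-2 below BMM and none above, against 6.27% below among all genes. Counts of called members in this and every later list stand against 7.08% above and 6.27% below among all genes. Among genes above background in all 4 groups these shares were 11.6% and 9.57%. In BMM 47 rose and none fell. In MPI-2 8 rose and 9 fell. Their median difference was -2.26 (all genes -0.02), from median changes of 1.88 in BMM and -0.13 in MPI-2. The dynamin-like antiviral GTPases Mx2 and Mx1 differed by -4.85 and -4.45, and the mitochondrial nucleotide kinase Cmpk2 by -4.73, with no call in MPI-2 for any of them. Irf7, the factor that amplifies interferon production, rose by 2.51 in BMM and stood at -0.14 in MPI-2. Of the 39 members above background in all 4 groups 34 were called, all with MPI-2 below.

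All 8 interferon-induced GTPases were called with MPI-2 below (median difference -3.17). Gbp5, a guanylate-binding protein that promotes inflammasome assembly, had 4.63, 4.29 and 4.69 in BMM mock and 10.74, 10.80 and 11.02 in BMM LPS, against 3.20, 2.81 and 3.16 in MPI-2 mock and 4.77, 4.73 and 4.63 in MPI-2 LPS. LPS arrays were above mock arrays in both cell types, and the difference was -4.66 ± 0.20 (adjusted p = 1.61e-09). Gbp7 and Gbp3 also rose more in BMM. Only 2 of the 8 lay above background in every group. Among 14 class I antigen presentation genes 10 were called below and none above (median difference -1.27), such as the peptide transporter Tap1 (-2.39), its partner tapasin, Tapbp (-1.95), and the immunoproteasome subunits Psmb10 (-2.24) and Psmb8 (-1.89).

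**Figure D3:**
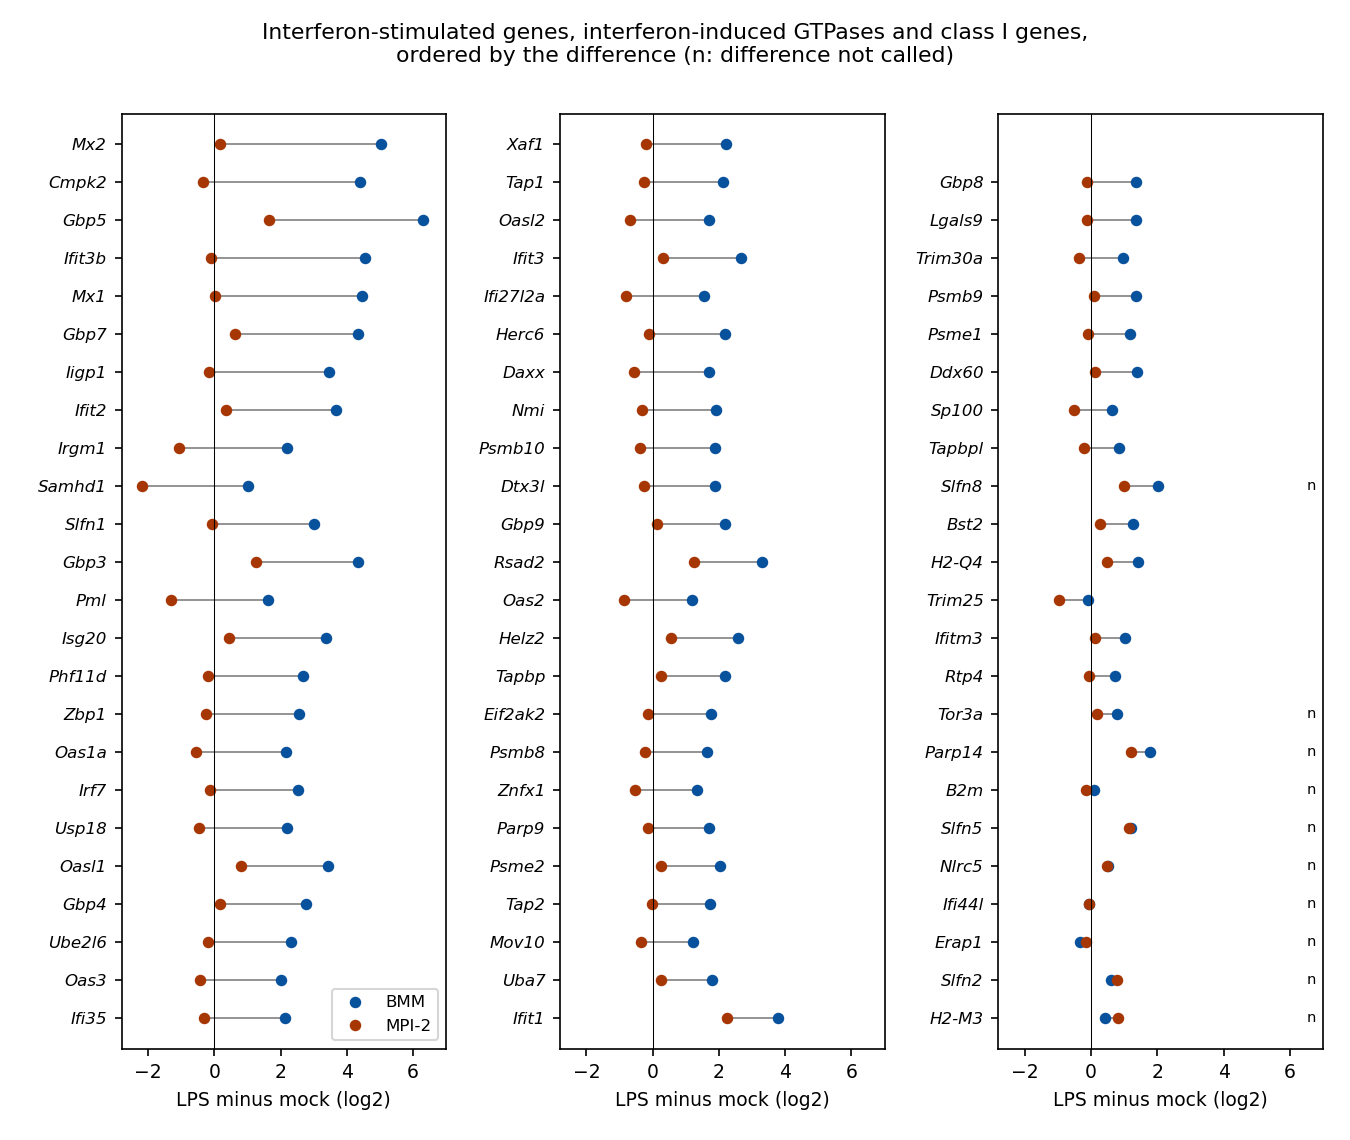
LPS minus mock (log2) in BMM and MPI-2 for each interferon-stimulated gene, interferon-induced GTPase and class I gene tested, joined by a line and ordered by the difference of responses from upper left to lower right. From Mx2 down to Rtp4 nearly every BMM point lies right of its MPI-2 point, while most MPI-2 points sit near 0, and an n marks genes whose difference was not called.

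Among 12 cytosolic sensors of nucleic acid 6 were called below and 1 above. The RNA helicases Ddx58 (RIG-I) and Dhx58 rose in BMM and fell in MPI-2, with differences of -2.04 and -2.62. The DNA sensor family members Ifi206 and Ifi207 went apart, at -3.76 and 0.89, and these paralogs can share probes. Ifi207 lost its call in 8 of the 12 cases with a single array left out, and at equal array spread. Over all alternatives its difference fell as low as 0.017. Of 22 genes of interferon production and reception 11 were called below and 1 above. Socs1, the feedback inhibitor of Jak kinases, differed by -3.69, Irf1 by -1.88 and the interferon gene Ifna4, which can share probes with its copies, by -2.18. Ifna4 lay under background in 3 groups, and its difference was -1.56 with those groups set to background. Ifngr2, a chain of the interferon-gamma receptor, was the member called above (0.80), and it lost its call without BMM mock 3, MPI-2 mock 2 or 3 or MPI-2 LPS 1 and at equal array spread. After quantile normalization the counts of this list were 7 below and 4 above.

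Cytokine genes were split. Of 28 tested 13 were called below and 7 above (median difference -0.65, or -1.11 at equal array spread), and 24 rose in BMM and 21 in MPI-2. Il10, the anti-inflammatory cytokine, rose in BMM from 6.02, 4.93 and 5.68 to 8.80, 9.46 and 9.68. In MPI-2 it stayed under background in all arrays, at 2.41, 2.47 and 2.19 in mock and 2.42, 2.37 and 2.68 in LPS (difference -3.64 ± 0.35, adjusted p = 3.49e-06). Il1a, an alarmin that signals through the interleukin-1 receptor, rose in BMM from 6.53, 5.35 and 5.01 to 10.97, 11.02 and 11.54. In MPI-2 it was already at 10.58, 10.79 and 10.91 in mock and reached 11.79, 11.75 and 12.10 (difference -4.43 ± 0.40). MPI-2 LPS arrays were thus the highest of all although the response was the smaller. The highest value of any gene was 12.82, and whether the top of the range limits the rise in MPI-2 was not tested. Tnfsf10, which encodes the death ligand TRAIL, differed by -3.07.

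The cytokines with a larger response in MPI-2 were led by growth factors and an interleukin-1 relative. Csf3, encoding granulocyte colony-stimulating factor, measured 3.04, 3.11 and 3.02 in BMM mock, 3.39, 3.41 and 3.39 in BMM LPS, 2.98, 2.94 and 2.97 in MPI-2 mock and 7.27, 7.5 and 7.52 in MPI-2 LPS. Only MPI-2 LPS arrays were clearly above background, and the difference was 4.13 ± 0.16 (adjusted p = 5.21e-10). Il1f6, which encodes interleukin-36 alpha, rose by 0.68 in BMM and by 5.70 in MPI-2 (difference 5.02 ± 0.26). Ereg, a ligand of the epidermal growth factor receptor, measured 3.63, 3.79 and 3.64 in BMM mock and 3.62, 3.51 and 3.86 in BMM LPS. In MPI-2 it rose from 4.06, 3.97 and 4.10 to 8.05, 8.0 and 8.38 (difference 4.12 ± 0.19). Il23a, a subunit of interleukin-23, differed by 2.60, Il12b, the subunit it shares with interleukin-12, by 0.98 and Tnfsf15 by 0.75, the last 2 not called at equal array spread. Il1bos, an antisense transcript of Il1b, had the largest difference in the direction of MPI-2 among nameable genes (5.17 ± 0.24). It overlaps Il1b, and how far their probes share signal was not tested. Il1b itself did not pass (-0.69 ± 0.24, adjusted p = 0.0823), but it was called below without BMM mock replicate 1 (-0.88, adjusted p = 0.0095) and at equal array spread (-1.39).

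Some central LPS genes showed no called difference. Il6 rose from 2.85, 2.70 and 2.73 to 9.55, 9.55 and 10.51 in BMM and from 3.63, 4.33 and 3.66 to 10.44, 10.64 and 10.92 in MPI-2. Both cell types responded with arrays far apart, and the difference was -0.32 ± 0.34 (adjusted p = 0.691), or 0.29 with BMM mock set to background. Tnf rose by 1.74 and 2.14, with a difference of 0.40 ± 0.20 (adjusted p = 0.256). Tlr4 itself had a difference of 0.12 ± 0.26 (adjusted p = 0.871). These do not show equal responses.

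Of 25 chemokines 9 were called below and 5 above (median difference -0.24, or -0.49 at equal array spread). Cxcl11, a ligand of Cxcr3 that interferon induces, measured 3.76, 3.86 and 3.61 in BMM mock and 8.72, 9.03 and 9.25 in BMM LPS, and in MPI-2 2.85, 3.00 and 3.08 in mock and 3.22, 3.30 and 3.26 in LPS, all under background (difference -4.97 ± 0.20, adjusted p = 6.39e-10). Cxcl9, of the same receptor, differed by -4.04 and the neutrophil attractant Cxcl1 by -2.67. Cxcl10, the third ligand of that receptor, went the other way. It measured 10.66, 9.97 and 10.62 in BMM mock, 12.62, 12.70 and 12.31 in BMM LPS, 7.23, 6.96 and 7.24 in MPI-2 mock and 12.07, 12.06 and 12.05 in MPI-2 LPS. MPI-2 thus began lower and ended slightly below BMM, with a difference of 2.79 ± 0.24 (adjusted p = 1.32e-06). The BMM LPS values lie close to the highest of any array, 12.82. Whether the top of the range limits the rise in BMM was not tested. The dendritic and T cell attractant Ccl20 rose in MPI-2 and had no call in BMM (3.28), and Ccl17 differed by 1.16. Cxcl2 (0.92) and Cxcl16 (1.02) were called above but lost the call at equal array spread. Cxcl16 had 1 group under background, and its difference was 0.515 with that group set to background. The promoter of Cxcl10, at chr5:92348890-92349139 (minus strand), is shown because it holds both motifs, the ISRE core in the first capital run and NF-kB motifs in the next 2.
Cxcl10: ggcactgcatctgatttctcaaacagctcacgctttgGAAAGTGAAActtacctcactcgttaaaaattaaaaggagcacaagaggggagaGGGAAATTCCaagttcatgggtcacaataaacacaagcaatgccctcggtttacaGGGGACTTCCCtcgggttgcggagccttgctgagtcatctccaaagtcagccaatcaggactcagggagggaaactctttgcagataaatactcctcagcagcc

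**Figure D4:**
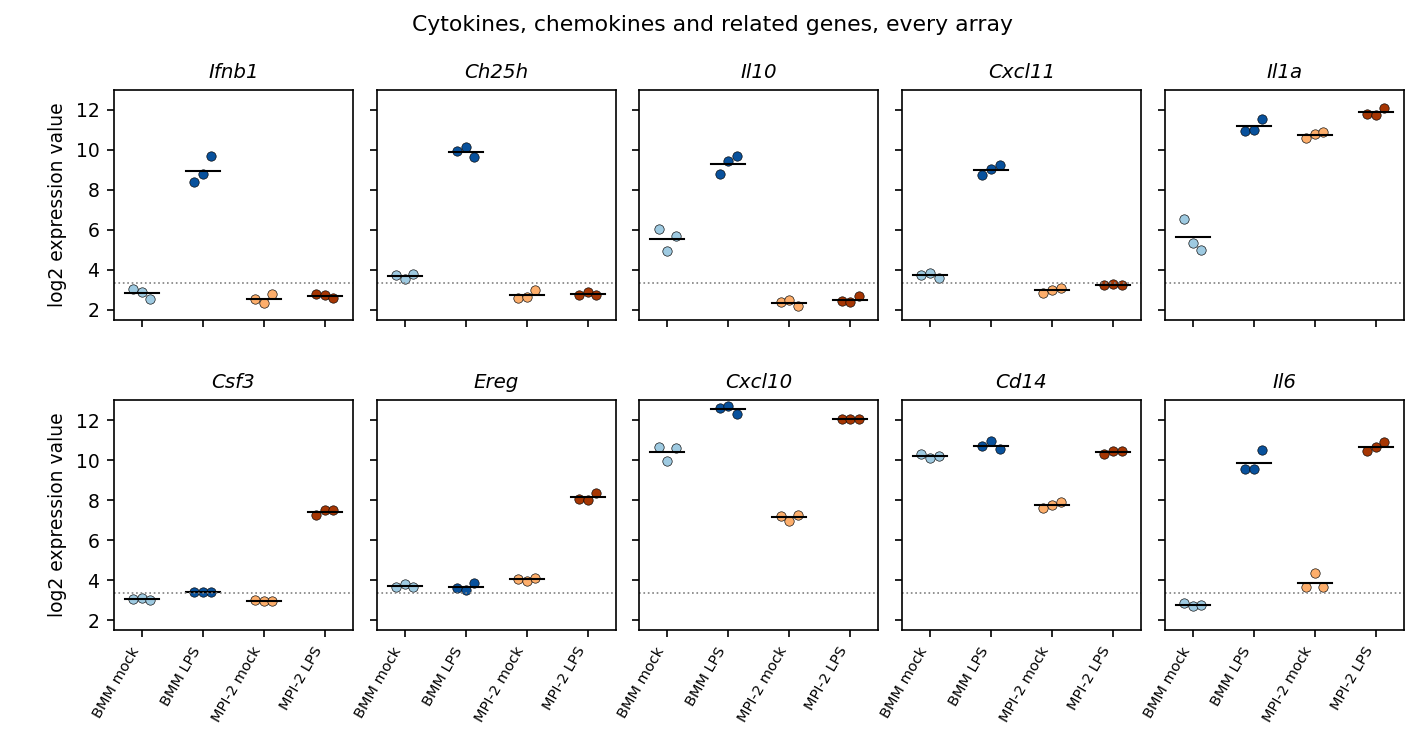
The log2 expression value of 10 genes in every array, by group, with bars at the group means and a dotted line at background (3.36). Ifnb1, Ch25h, Il10 and Cxcl11 are high in BMM LPS alone or above their own mock, Csf3 and Ereg in MPI-2 LPS alone, Il1a, Cxcl10 and Cd14 differ between cell types already in mock, and Il6 rises in both.

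In the receptor and Myd88 pathway 6 of 24 genes were called below and 3 above. Cd14, the co-receptor that hands LPS to Tlr4, measured 10.29, 10.10 and 10.19 in BMM mock, 10.68, 10.94 and 10.54 in BMM LPS, 7.63, 7.76 and 7.89 in MPI-2 mock and 10.31, 10.45 and 10.44 in MPI-2 LPS. MPI-2 started lower and reached nearly the BMM level (difference 2.11 ± 0.18, adjusted p = 1.32e-06). Tlr6 and Tlr1, partners of Tlr2 in lipopeptide sensing, differed by -1.66 and -1.77, and Tlr9, the DNA sensor, by 1.16 (not called at equal array spread). Ly96 (-1.47) and Myd88 (-0.96), named after their values were seen, were called below and rose in BMM with no call in MPI-2. Tlr3 (-2.17) rose in BMM and fell in MPI-2. These last genes were not followed across the alternatives. Of 26 NF-kB subunits and regulators 7 were called above and 5 below, and 18 rose in BMM and 16 in MPI-2. The nuclear co-regulator Nfkbiz rose from 8.78, 8.41 and 8.27 to 10.08, 10.20 and 9.69 in BMM and from 6.96, 7.14 and 7.22 to 11.09, 10.96 and 10.98 in MPI-2 (difference 2.40 ± 0.22). Zc3h12a, an RNase that degrades cytokine mRNA, differed by 1.33 and Nfkbid by 1.63, while the ubiquitin-binding N4bp1 (-1.33) and the kinase Ikbkb (-1.09) lay below. At equal array spread the counts of this list were 4 above and 10 below. Leaving out a single array (mock 3 or LPS 1 of BMM, or mock 1, LPS 2 or LPS 3 of MPI-2) left 4 above, and without both outlying BMM arrays 10 were below.

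Immediate early factors were called above in 11 of 29 (7 at equal array spread) and below in 5 (median difference 0.34). In BMM 10 fell and 6 rose, and in MPI-2 10 rose and 7 fell. Beside Nr4a1 and Btg2, described above, the stress-inducible Ier3 rose in MPI-2 (2.35) and stood at 0.00 in BMM, and Egr1 differed by 2.08. Fos, a subunit of AP-1, fell in both, by 2.20 in BMM and by 1.03 in MPI-2 (difference 1.17, not called at equal array spread). Maff, Fosl1, Mafk and Csrnp1 were called below, and Mafk was no longer called in 9 of the 12 cases with a single array left out. Of 16 MAP kinase phosphatase and Sprouty genes 5 were called above and 3 below (median difference 0.47). Without BMM mock 1, any MPI-2 mock array or MPI-2 LPS 2, 3 were called above, and the median was 0.17 without BMM LPS 3 and 0.70 without BMM LPS 2. The phosphatase of ERK Dusp6 fell by 2.16 in BMM and stood at 0.33 in MPI-2, Dusp8 differed by 2.05 and Dusp2, which rose in BMM, by -2.12. The median differences of both lists turned slightly negative at equal array spread. Gadd45a, a stress and growth arrest gene, rose by 3.62 in MPI-2 and stood at 0.00 in BMM, whereas its relative Gadd45g differed by -2.40.

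Inducible enzymes were called below in 15 of 33 and above in 8. Ch25h, which makes the antiviral oxysterol 25-hydroxycholesterol, had the most negative difference of responses of all nameable genes. It measured 3.74, 3.54 and 3.79 in BMM mock, 9.95, 10.15 and 9.64 in BMM LPS, 2.57, 2.62 and 2.98 in MPI-2 mock and 2.72, 2.88 and 2.72 in MPI-2 LPS, so that MPI-2 stayed under background (difference -6.17 ± 0.21, adjusted p = 3.13e-10). Nos2, the inducible nitric oxide synthase, differed by -2.65 and lay under background in 3 groups. The arginine carrier that feeds it, Slc7a2, differed by -2.97, although its MPI-2 mock level was at or above its BMM LPS level. Against them Acod1, which makes itaconate, rose in both and more in MPI-2 (1.45, not called at equal array spread), as did the siderophore-binding Lcn2 (2.27). Heme oxygenase, Hmox1, differed by 1.91 and the protease urokinase, Plau, by 2.06. The collagenase Mmp13 was called above (0.83) but turned to -0.073 at equal array spread.

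Among 19 class II and costimulation genes 7 were called below and 3 above. Tnfsf4 (OX40 ligand) differed by -5.0, the adhesion molecule Vcam1 by -4.29 and the checkpoint ligand Cd274 by -2.41. Cd40, the receptor for T cell help, rose in BMM from 5.23, 5.29 and 5.76 to 9.99, 10.10 and 9.71, and had overlapping arrays in MPI-2, 3.77, 3.88 and 3.94 in mock and 4.23, 4.16 and 3.88 in LPS (difference -4.28 ± 0.22, adjusted p = 7.14e-09). The class II genes H2-Aa (1.79) and H2-Eb1 (1.16) and the maturation marker Cd83 (0.97) were called above, the last not at equal array spread. The class II loading factor H2-DMa was called below (-1.22), while H2-Ab1 (0.61) and the invariant chain Cd74 (0.02) were not called. Of 25 inflammasome and cell death genes 7 were called below, such as the necroptosis effector Mlkl (-3.09) and its kinase Ripk3 (-2.15), and 4 above, or 7 above without BMM LPS 2 and 2 at equal array spread. Of 21 chemokine, complement and purine receptors 6 were called below, led by P2ry2 (-2.63) and Ccr3 (-2.63), and 4 above, led by Cxcr4 (2.46), which fell more in BMM. With any single array left out 2 or 3 were called above, and at equal array spread 1 was. Ccrl2, called above at 0.62, turned to -0.15 there and lost its call without most single arrays. Of 25 receptors of colony-stimulating factors, their relatives and SOCS genes 5 were called above (3 at equal array spread) and 6 below. Cish, a feedback inhibitor of cytokine receptors, differed by -2.92, and Csf1r, the M-CSF receptor, by 0.77 after a fall of 1.22 in BMM (not called at equal array spread). Csf2rb and Csf2rb2, chains of the GM-CSF and interleukin-3 receptors, differed by 1.21 and 1.40 but can share probes.

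Genes that LPS lowered in BMM made up much of the calls above. Of 33 lysosomal genes 25 fell in BMM and 14 in MPI-2, and 16 were called above and 4 below (median difference 0.63). The acid lipase Lipa went down by 1.95 in BMM and stood at 0.38 in MPI-2, the protease Ctsd fell by 1.51 and rose by 0.59, and the protease Lgmn differed by 2.05. Npc2, Scarb2, Ppt1 and Ctsc were called below, and Ctsc and Ppt1 lost their calls without most single arrays, so that 2 were below in 7 of the 12 cases. Of 24 alpha-arrestin and nutrient uptake genes 10 were called above and 3 below. Arrdc3, an alpha-arrestin that sorts receptors and glucose transporters, fell from 9.95, 10.23 and 10.26 to 5.85, 5.86 and 5.55 in BMM. In MPI-2 its arrays overlapped, at 6.20, 6.56 and 6.24 in mock and 5.94, 6.04 and 6.25 in LPS, near the level that BMM reached after LPS (difference 4.14 ± 0.21, adjusted p = 4.42e-09). The leucine sensors Sesn1 (2.37) and Sesn2 (1.70) were also called above.

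Of 16 clustered histone genes 11 fell in BMM and 4 in MPI-2, and 7 were called above and 1 below (median difference 0.75). The linker histone H1f2 fell by 3.61 in BMM and stood at -0.27 in MPI-2. Histone genes share near-identical sequence, so single members are uncertain. Of 31 macrophage transcription factors 5 were called above (16.1%) and 4 below (12.9%), at a median difference of 0.06. Among genes above background in all 4 groups the shares were 11.6% and 9.57%. Tfec, of the MiT family, rose in BMM by 3.41 (difference -3.27), Stat5a differed by -1.79 and Id2, an inhibitor of helix-loop-helix factors, by 1.73. Pparg, the lipid-sensing regulator of alveolar macrophages, was not called (0.34 ± 0.20, adjusted p = 0.357). Of 27 scavenger receptors and lectins 10 were called above (6 at equal array spread) and 4 below, from the stabilin Stab1 (2.42) to the oxidised lipid receptor Olr1 (-3.64) and the efferocytosis kinase Axl (-3.09). Marco, a scavenger receptor of alveolar macrophages, was called above (0.76) but lost the call at equal array spread and in most other settings. Of the 10 macrophage markers 8 were called above and Fcgr1 below, at a median change of -0.74 in BMM and 0.08 in MPI-2. Their summed log2 level was 89.4 to 89.8 in BMM mock, 82.3 to 84.0 in BMM LPS, 76.4 to 77.6 in MPI-2 mock and 77.6 to 78.4 in MPI-2 LPS. At equal array spread 4 of the 10 were called above. Their part in the other differences was not tested.

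Cholesterol synthesis had 1 above and 1 below of 19 and the respiratory chain 1 and 2 of 22. DNA replication had 4 and 2 of 34 and mitosis 4 and 2 of 29. Their shares above ran from 4.55% in the respiratory chain to 13.8% in mitosis. Shares below ran from 5.26% in cholesterol synthesis to 9.09% in the respiratory chain. Among all genes 7.08% were above and 6.27% below, and among genes above background in all 4 groups 11.6% and 9.57%. No lack of calls is read from these lists. These counts are small and moved when 1 array was left out, for example to 0 to 3 below in cholesterol synthesis, 2 to 4 below in DNA replication and 2 to 5 above in mitosis. E2f8, a repressor of the cell cycle, rose in BMM and fell in MPI-2 (-2.0), and the proliferation marker Mki67 rose in BMM alone by call (-1.63). Housekeeping genes had 2 above and 1 below of 12 (none below without most single arrays), among them the transferrin receptor Tfrc (1.32), which fell in BMM and rose in MPI-2, and Gusb, a lysosomal enzyme (2.03).

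**Figure D5:**
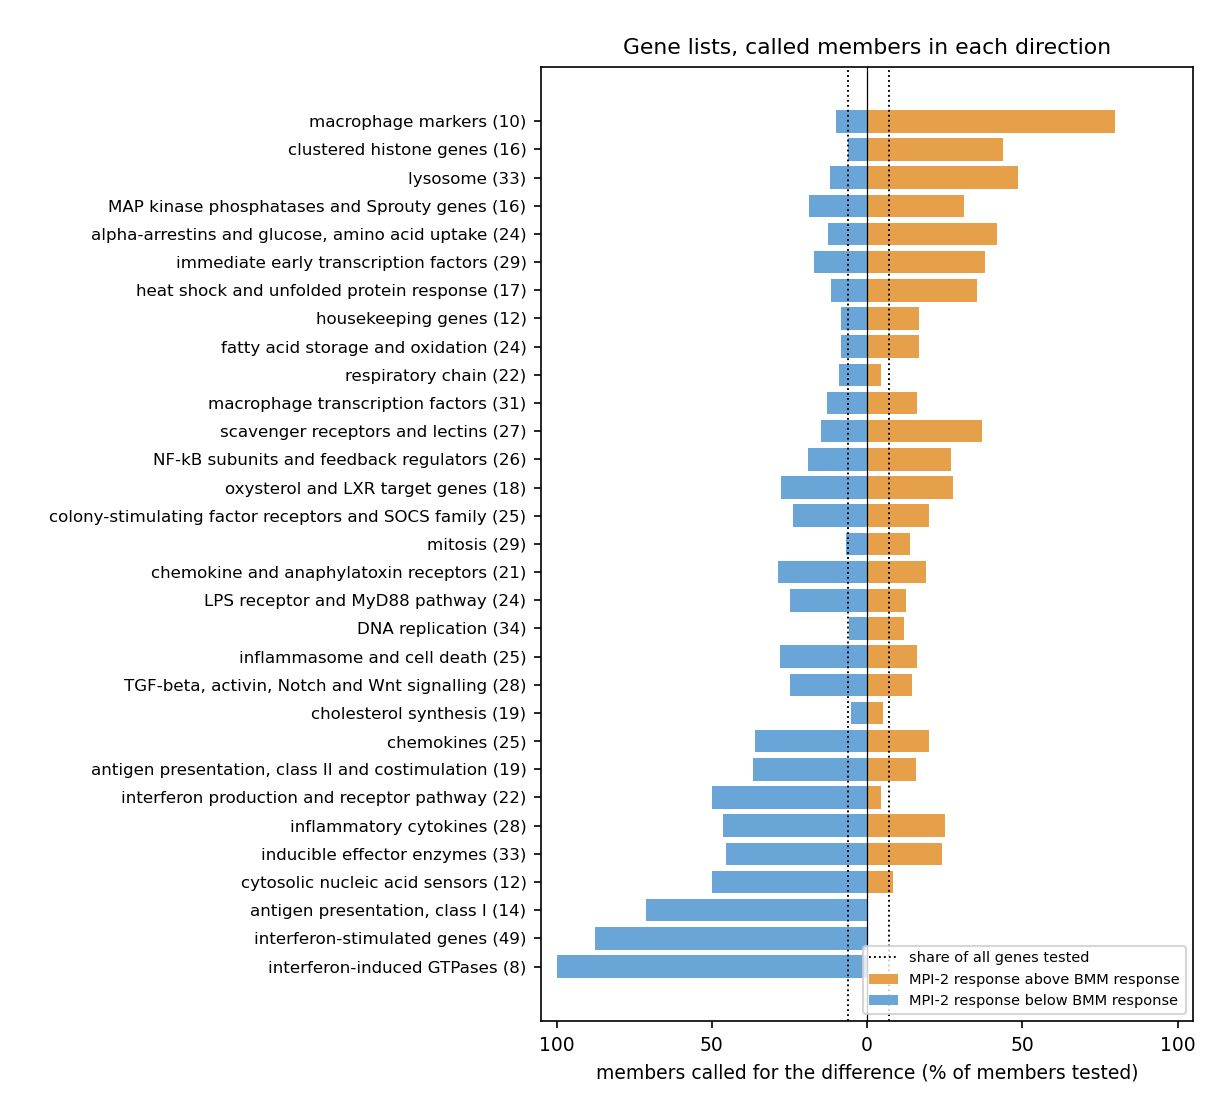
For each gene list, the share of tested members (number in brackets) called with the MPI-2 response above (bars to the right) or below (bars to the left) that of BMM, ordered by median difference. Dotted lines mark the shares of all genes tested, 7.08% above and 6.27% below. Interferon-induced GTPases, interferon-stimulated genes and class I genes have bars to the left alone, and macrophage markers, histones and lysosomal genes extend farthest to the right.

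A response that is smaller in 1 cell type can go with a level at the floor or a level already reached, a split made after values were seen. Of 768 genes that rose in BMM with no call or a smaller rise in MPI-2, 117 were under background in both MPI-2 groups, such as Ifnb1 and Ch25h, and in 129 the MPI-2 mock level was at or above the BMM LPS level, such as Slc7a2, Olr1 and Tfec. Of 1022 that fell in BMM with no call or a smaller fall in MPI-2, 77 were under background in MPI-2 and in 153 MPI-2 mock was at or below the BMM LPS level, such as Lpar6, a receptor for lysophosphatidic acid, and Stab1. Of 268 that rose in MPI-2 with no call or a smaller rise in BMM, 38 were under background in BMM and in 41 the BMM mock level was already as high. Pdgfb, a growth factor chain, and Plau were of that kind. Of 300 that fell in MPI-2 with no call or a smaller fall in BMM, 41 were under background in BMM and 138 already as low, Ccn3, Fzd4 and the vitamin D receptor Vdr among them.

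The promoter motifs were counted in the 250 bases before the start of 15562 tested genes, on either strand. The ISRE core was present in 3.40% and the NF-kB motif in 9.48% of them, and in 2.98% and 7.25% of all 32851 promoters of the table. Genes that rose in both and more in MPI-2 held the ISRE core in 6 of 35 promoters (17.1%) and the NF-kB motif in 13 of 35 (37.1%). Genes that rose in BMM and fell in MPI-2 held them in 7.89% and 15.8%, those that rose in BMM with no call in MPI-2 in 8.63% and 13.5%, and those that rose in both and more in BMM in 8.77% and 18.4%. Over these last 3 classes together the ISRE core was in 8.54% of 738 promoters. Of the 57 promoters of genes that fell in BMM and rose in MPI-2 none held the ISRE core and 8 held the NF-kB motif. Among interferon-stimulated genes 30.8% of 39 promoters held the ISRE core, and among the NF-kB list 45.5% of 22 held the NF-kB motif. A match describes these letters alone, and no test was made.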

How the data were processed

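Newly made RNA was profiled on whole-transcript arrays in 12 samples of 4 groups taken from the labels. The authors deposited log2 expression values made with RMA and the package affy, per the submitters' processing notes, which the sources used here give without versions. Medians and spreads of the deposited arrays differ, so changes depend on how arrays are scaled, and the values were used as deposited. Log base 2 was inferred from RMA and from values of 1.18 to 12.82.

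Of 34760 probe sets 21640 name 1 gene, 1321 several and 11799 are unnamed here. Probe sets with several names were not used. Symbols were updated through Entrez identifiers against RefSeq, GRCm38.p6 (21553 probe sets matched), and promoters come from the same build. The probe set with the highest mean stood for each of 954 genes with several. Background is the 95th percentile of the means of 1027 olfactory receptor genes. No gene was filtered out.

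limma 3.58.1 in R 4.3.3 fitted 4 group means to all 12 arrays (residual degrees of freedom 8, and 6.99 from eBayes), with Benjamini-Hochberg adjustment over 19937 genes and a threshold of 0.05. Every adjusted p printed is from this fit, except the value for Il1b without BMM mock replicate 1, which is from the fit without that array. Of 859 entries in the gene lists 770 matched a tested gene. Genes and lists were chosen with earlier results of these data known, and lists are described by counts and medians without a test.

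Genes are named by rule: the 15 largest differences each way, the 10 largest each way above background in all groups, 12 in each opposite class by the smaller of their responses, up to 4 members of each list by adjusted p with called members that went against their list, 5 of each other class, and a fixed set of macrophage genes. Not all are printed. Clone names, predicted genes, small RNA and receptor families of smell, taste and antigen were left out. Alternatives were other array scalings, a filter, probe set averages, other variance models, replicate blocks, stricter calls and leaving out arrays. Equal spread means that each array was set to the same median and median absolute deviation. It is only 1 of the array scalings, and a call lost there, such as that of Cxcl2, was not always lost after quantile normalization.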

Additional observations from a re-analysis of the deposited data

Results flagged for a closer look

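The difference of responses is itself a test between cell types, so each called gene, 2662 in all, is a response that differs between groups. Among them are the 139 and 69 genes with opposite calls. Rising in BMM and falling in MPI-2 were Fcgr4 (-4.10), Naaa (-3.51), Plod3 (-3.30), Irgm1 (-3.26), Pml (-2.96), Dck (-2.68), Tmem67 (-2.64), Myadm (-2.60), Slc7a7 (-2.59), Mid1 (-2.56), Slc25a22 (-2.32) and Etv6 (-2.12). Falling in BMM and rising in MPI-2 were Nr4a1 (3.73), Osm (3.35), Btg2 (3.19), Tlr13 (3.14), Slc20a1 (3.04), Il7r (2.93), Gde1 (2.84), Hgsnat (2.80), Stk38l (2.69), Herpud1 (2.45), Aph1b (2.24) and Lrrc8d (1.94). Groups of 3 arrays were not tested for outlying single values.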

How the results depend on the processing

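Of the 238 genes followed, 232 kept their sign and 173 their sign and call in every alternative. Total calls (2662) were 1717 with a replicate block by the number in the descriptions (for MPI-2 mock these are 2, 3 and 4 where titles give 1, 2 and 3, so the block joins other arrays and leaves 2 alone), 1600 at an adjusted p under 0.01 and 873 by limma's treat at 0.5. Calls above (1412) were 821, 793 and 389 in these 3 settings, and calls below (1250) 807 and 484 in the last 2. The opposite counts (139 and 69) were 78 and 40 with that block, 67 and 38 at 0.01, 235 and 164 without the 2 BMM arrays, and the second 150 with array weights. Calls above background in all groups (2238) were 1421, 1327 and 702, the genes in the classes followed 1463, 1394 and 873, list members 200 by treat (350), and the ISRE share 10.9% at 0.01 and 11.9% by treat (8.54%). Leaving out 1 array gave 2075 to 3025 calls, 1044 to 1704 above, 995 to 1483 below, 82 to 169 and 46 to 96 opposite, 1733 to 2569 above background, 1880 to 2282 in the classes, 311 to 374 list members and an ISRE share of 7.59% to 9.96%. Equal array spread gave 1004 above and 1602 below, turned the medians of immediate early factors (-0.0002), MAP kinase phosphatases (-0.058) and housekeeping genes (-0.13), and turned Ccrl2 (-0.15) and Mmp13 (-0.073). The respiratory chain median turned to -0.11 without the 2 BMM arrays. The cause of these shifts was not tested. The labels do not say whether title numbers pair cultures. Deviations of same-numbered arrays from their group means correlated at 0.24, -0.09 and -0.01 in BMM and 0.05, -0.15 and -0.09 in MPI-2. With 3 arrays a group such deviations are tied to each other, so these values cannot settle whether cultures were paired. A block on title numbers gave 2686 calls, or 2635 within cell type. Genes near background have understated changes, and with 3 arrays a group no difference under 3.15 times its SE (median SE 0.211) was called.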

Other observations

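Lists of metabolism and signalling outside the comparisons above were mixed. Of 18 oxysterol and LXR target genes 5 were called with MPI-2 above BMM (2 at equal array spread) and 5 below. Scd1, a fatty acid desaturase, fell in MPI-2 alone by call (difference -1.80). Both BMM groups lay under background for Scd1, so a fall there could not be seen. Apoe, a carrier of lipid out of macrophages, differed by 1.44 after a fall in BMM, but lost its call at equal array spread. Of 24 fatty acid genes 4 were called above and 2 below, the latter count running from 1 to 5 when single arrays were left out. Cpt1a, which admits fatty acids to mitochondria, fell more in MPI-2 (-1.48), and Dgat2, which completes triglyceride synthesis, differed by 1.58. Of 28 TGF-beta, activin, Notch and Wnt genes 4 were called above and 7 below. The Wnt effector Tcf7l2 rose in BMM and fell in MPI-2 (-2.04), and the inhibitory Smad genes Smad7 (1.86) and Smad6 (1.41) fell in BMM with no call in MPI-2. Of 17 heat shock and unfolded protein response genes 6 were called above, led by Herpud1 and the chaperone Hsph1 (1.88), and 2 below, Xbp1 (-1.29) and Edem1 (-0.98). At equal array spread, or with either array numbered 3 of MPI-2 left out, 3 of these 17 were called above. Of 9 alveolar macrophage markers 4 were called above, such as the integrin Itgax (1.64), and 2 below, such as Krt79 (-1.35). Among markers of other cells S100a8, a calcium-binding protein of neutrophils, rose in MPI-2 (1.65), and Cxcr2 (-1.30) and Pdgfra were called below. Cxcr2 lay under background in 3 of the 4 groups, and its difference was -0.83 with those groups set to background. The neutrophil genes Ly6g, S100a9, Mpo, Ngp, Ltf and Retnlg lay under background in all groups.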
